A study of Mus musculus with 23 samples.

Results

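The genes described here encode the proteins of the cytosolic ribosome in mouse embryos. They were taken from the count table by symbol: every Rpl or Rps gene with a number and at most 1 closing letter out of a, x, l or y, the stalk genes Rplp0, Rplp1 and Rplp2, and Rpsa, kept where the row held at least 230 counts over all libraries. 81 of 23725 rows matched and 79 passed that minimum, 32 for the small subunit (Rps and Rpsa) and 47 for the large subunit (Rpl). Just inside the minimum lay Rpl26 with 307 counts and Rpl10l with 1272, and just outside it Rpl39l with 222 and Rpl3l with 52. All 79 passed the filter on low counts in every test.

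The embryos were at E6.25, shortly after implantation. The homozygous and heterozygous ones carried a gene-trap allele of Tet1, which encodes a 5-methylcytosine dioxygenase. The groups were the extra-embryonic tissue (ExE) of homozygous Tet1gt/gt embryos (ZZ, 3 libraries), of heterozygous Tet1gt/wt embryos (Zwt, 4 libraries) and of wild-type embryos (wt, 4 libraries), and the epiblast (E) of the same genotypes in the same order, with 4 libraries each. Each library is a pool of at least 6 embryos drawn from 2 to 3 litters and sorted by genotype after collection, so a value describes a pool and not an embryo, and a pool holds a whole dissected tissue. A library is called by tissue, genotype and number, as in E_ZZ3. PolyA RNA was amplified from 1 to 10 ng by template-switching cDNA synthesis before sequencing.

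A cytosolic ribosome pairs a small subunit, which reads the mRNA, with a large subunit, which joins the amino acids. Each ribosomal protein is needed in about equal number, and many of the mRNAs begin with a run of pyrimidines, the TOP motif, through which mTORC1 signalling and the protein Larp1 adjust their translation together. In early embryos they are among the most abundant mRNAs, and in humans loss of a single copy of several of them causes Diamond-Blackfan anaemia.

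The transcription starts of 58 members could be read from the RefSeq promoter table (build GRCm38.p6). The letters CTTTC, searched on the transcribed strand from 20 bases before to 50 bases after the start, as a simple form of the TOP motif, occurred for 30 of these 58 members (51.7%) and for 2803 of 27025 genes in the table (10.4%). The letters CGGAAG, the core bound by ETS factors such as GABP, searched on both strands over the 300 bases of the table, occurred for 40 of the 58 (69.0%) and for 5075 of 27025 genes (18.8%). Sites of the 2 motifs can overlap only by a shared C at an end. The windows below run from 10 bases before to 20 bases after the start and are shown for members whose values recur below, with CTTTC, or CGGAAG on either strand (as CTTCCG where it lies on the other), in capitals. Rps27, Rplp2 and Rpl35a (its second listed start) hold CTTTC, Rpl41, Rps27l and Rpl34 (its second listed start) hold CGGAAG, and Rpl22 and Rps25 hold neither in these 30 bases.
Rps27, chr3:90213629-90213658, minus strand: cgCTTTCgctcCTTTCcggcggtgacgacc
Rplp2, chr7:141447641-141447670, plus strand: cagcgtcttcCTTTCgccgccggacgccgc
Rpl35a, chr16:33056472-33056501, plus strand: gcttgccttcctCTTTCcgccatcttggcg
Rpl41, chr10:128549149-128549178, minus strand: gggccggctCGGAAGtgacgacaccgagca
Rps27l, chr9:66946076-66946105, plus strand: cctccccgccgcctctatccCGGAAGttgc
Rpl34, chr3:130730318-130730347, minus strand: cttttcctCTTCCGgggacggtgctcagag
Rpl22, chr4:152325716-152325745, plus strand: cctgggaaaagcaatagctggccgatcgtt
Rps25, chr9:44407704-44407733, plus strand: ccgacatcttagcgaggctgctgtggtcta
A match describes these letters only, and the absence of one says nothing of a factor.

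The libraries held 4912215 to 9494814 counts in genes, and a level of 3 counts, used here as a floor for counting error only, equals 0.316 to 0.611 CPM, the usual scale of counts relative to a library's total. The CPM below have that total scaled by edgeR's TMM factor. Tet1 averaged 27.8 ± 8.74 CPM in ExE ZZ (SD, n = 3), 48.1 ± 7.50 in ExE Zwt and 96.0 ± 13.7 in ExE wt (n = 4 each), and 81.1 ± 24.8 in E ZZ, 124 ± 38.6 in E Zwt and 173 ± 31.7 in E wt (n = 4 each). Summed levels of 12 trophoblast markers were 1880 to 3367 CPM in ExE and 97.7 to 706 CPM in E, with the ectoplacental marker Tpbpa at 0 in every ExE group. The 10 epiblast markers summed to 2242 to 5286 CPM in ExE and 8221 to 11579 CPM in E, so these markers were lower in ExE pools but not absent. Sums of 13 visceral endoderm markers lay between 7.35 and 638 CPM, highest in E_wt1, those of 8 decidual markers between 5.31 and 268 CPM, highest in ExE_ZZ3, and those of the 9 blood markers in the table between 0 and 36.9 CPM. The part of other cells in the differences below was not tested, and in such pools fewer cells of a type and less RNA per cell cannot be told apart.

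The ribosomal protein genes set 3 libraries apart from the other 20. ExE_ZZ3, E_ZZ3 and E_Zwt4 gave 9.09%, 7.63% and 7.64% of their counts to the 79 genes, against 3.10% to 4.69% in the other 20 libraries. The median member stood at 9.72, 9.34 and 9.31 log2 CPM in these 3, against 7.81 to 8.65 log2 CPM elsewhere. No other library fell between the 2 ranges, and ExE_ZZ3 and E_ZZ3 carry the same genotype and number. The 3 libraries were also among the shallower ones, with 4912215, 5967254 and 5764399 counts, and their counts over all genes were tilted toward short and GC-rich transcripts: the slope of log2 level on log2 transcript length was −0.27, −0.15 and −0.20, against −0.09 to 0.09 elsewhere, and the slope per 10 percentage points of GC was 0.80, 0.65 and 0.59, against −0.41 to 0.35. Among the other 20 the length slope was −0.09 to 0.08 in ExE (median −0.02) and 0.04 to 0.09 in E (median 0.07). Their GC slope was −0.28 to 0.35 in ExE (median 0.0020) and −0.41 to −0.0048 in E (median −0.18). The tissues thus still differed at the median in both slopes without the 3. The part of these tilts in the ribosomal values was not tested, and the comparisons of the members below are given with and without these 3 libraries.

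**Figure D1:**
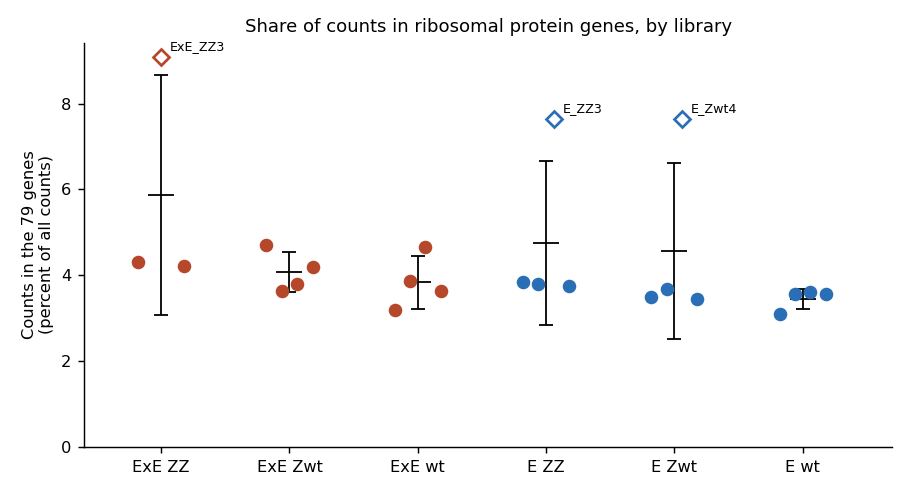
Percent of each library's counts in the 79 ribosomal protein genes, by group; points are libraries, open diamonds the 3 libraries that stand apart, and bars the mean ± SD of all libraries in the group. ExE_ZZ3, E_ZZ3 and E_Zwt4 lie at 7.63% to 9.09%, and the other 20 libraries between 3.10% and 4.69%.

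Without the 3, the share was 4.02% ± 0.479 in ExE (SD, n = 10) and 3.58% ± 0.213 in E (n = 10), and with them 4.48% ± 1.60 in ExE (n = 11) and 4.26% ± 1.59 in E (n = 12). In ExE the ZZ libraries had 4.31%, 9.09% and 4.21%, the Zwt libraries 4.69%, 3.64%, 3.79% and 4.20%, and the wt libraries 3.20%, 3.86%, 4.66% and 3.64%. In E the ZZ libraries had 3.85%, 3.79%, 7.63% and 3.75%, the Zwt libraries 3.50%, 3.67%, 7.64% and 3.46%, and the wt libraries 3.10%, 3.56%, 3.60% and 3.56%. The tissues overlapped with and without the 3. Small-subunit counts were 0.648 to 0.704 of large-subunit counts over all 23 libraries. The 3 lay at the low end of that range, at 0.648 to 0.658, and the median of the others was 0.680.

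Within the 3 libraries the rise was not the same for every gene. Measured as log2 CPM minus the mean of the rest of its group, each of the 78 members with an annotated coding sequence was higher in each of the 3 libraries, by a median of 1.22 in ExE_ZZ3, 1.10 in E_ZZ3 and 1.19 in E_Zwt4, against 0.05, 0.0061 and 0.03 over the other genes tested. Since the libraries were singled out by these levels, this is a description without a test. Rpl41, which encodes the shortest ribosomal protein, with a coding length of 75 bases, had the largest excess: 2.84, 2.25 and 2.39 on the log2 scale. Its level was 9529 CPM in ExE_ZZ3 against 1398 and 1266 in the other ExE ZZ libraries, 5853 in E_ZZ3 against 1155 to 1287 in the other E ZZ libraries, and 5291 in E_Zwt4 against 912 to 1118 in the other E Zwt libraries. None of these 3 values overlapped with its group.

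By the mean over the 3 libraries the members with the smallest excess were Rpl5 (0.12, 0.20 and 0.29 in ExE_ZZ3, E_ZZ3 and E_Zwt4), Rpl7 (0.21, 0.19 and 0.33), Rpl4 and Rpl3, all of the large subunit with long coding sequences. Rpl5 stood at 844 CPM in ExE_ZZ3 against 833 and 722 in the other ExE ZZ libraries, so that its levels in this group were close together. Over the 26 members with coding lengths of 75 to 399 bases the median excess was 1.55, 1.45 and 1.47 in the 3 libraries, over the 26 of 405 to 564 bases it was 1.28, 1.22 and 1.21, and over the 26 of 576 to 1257 bases it was 0.95, 0.82 and 0.98. Across the 78 genes Spearman's rho between excess and coding length was −0.55, −0.64 and −0.65, and between excess and GC content 0.35, 0.35 and 0.21. The genes share their libraries, so these are descriptions of 3 libraries.

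**Figure D2:**
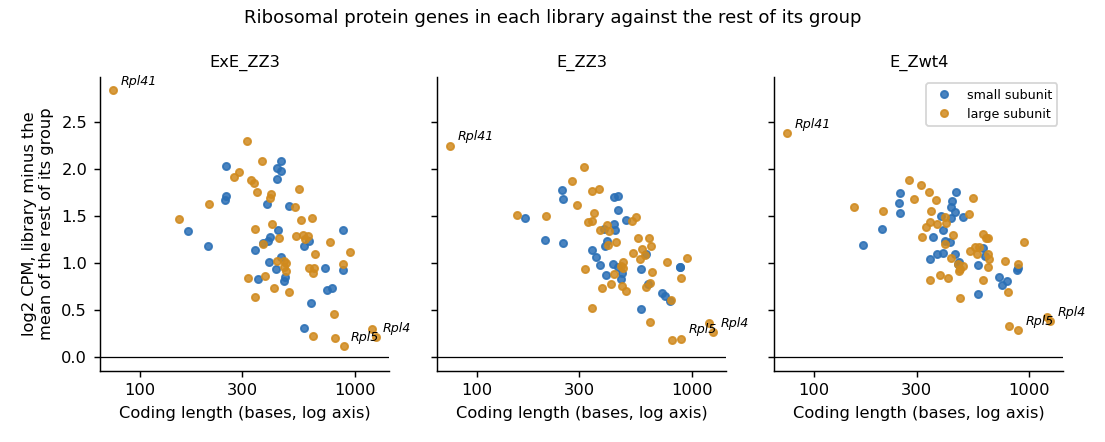
Log2 CPM of each ribosomal protein gene in ExE_ZZ3, E_ZZ3 and E_Zwt4 minus the mean of the other libraries of the same group, against coding length on a log axis; points are 78 genes, coloured by subunit. Rpl41 lies highest in each panel (2.84, 2.25 and 2.39), and Rpl5 lies among the lowest, at 0.12, 0.20 and 0.29.

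Other genes of like level and coding length had a smaller median excess. The 3 libraries were singled out by the members' levels, so this too is a description without a test. GC content was not matched. Among 2404 other genes whose mean level fell between the 5th and 95th percentile of the members' mean levels (6.52 and 10.5 log2 CPM), 122 had coding lengths in the short range, 152 in the middle range and 766 in the long range. The short ones had a median excess of 0.96, 0.85 and 0.97 in ExE_ZZ3, E_ZZ3 and E_Zwt4, the middle ones 0.54, 0.39 and 0.48, and the long ones 0.09 in each. Other genes with short coding sequences were thus also higher at the median in these libraries. Of the short other genes 30.3%, 19.7% and 20.5% lay above the median of the short members. Of the long other genes 16.1%, 13.7% and 6.14% lay above that of the long members.

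Levels between genes were compared per length, as CPM per kilobase of the longest annotated transcript, over the 8 wt libraries of both tissues. The highest were Rps2 at 1821 ± 292, Rplp0 at 1706 ± 301, Rpl41 at 1568 ± 319, Rpl4 at 1297 ± 95.6 and Rpl8 at 1119 ± 189 CPM per kilobase (SD, n = 8 each). The ranges of mean ± SD overlapped among Rps2, Rplp0 and Rpl41, and between Rpl4 and Rpl8. The genes were measured in the same libraries, and differences between them within a library were not tested. The median member had 282 CPM per kilobase. The lowest were Rpl26 at 1.86 ± 0.460, Rpl10l at 6.50 ± 4.23, Rps15a at 18.8 ± 4.87, Rpl12 at 38.5 ± 5.76 and Rpl35a at 55.8 ± 7.87.

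The low place of Rps15a, Rpl12 and Rpl35a comes with longest annotated transcripts of 5179, 2863 and 2858 bases, while those of Rps2 and Rplp0 have 1094 and 1358 bases. With the median length of the protein-coding transcripts the median member had 396 CPM per kilobase, and Rpl26, Rpl10l, Rps20, Rpl12 and Rpl22 were lowest. With coding length, an alternative chosen after the data were seen, the median was 624 and Rpl41 stood at 14526. Rpl26 and Rpl10l were lowest and Rpl41, Rplp0 and Rps2 in the top 5 under all 3 lengths. Rpl26, an essential large-subunit protein, held only 5 to 28 counts per library, and Rpl10l, a paralogue of the X-linked Rpl10 that serves the mouse testis, 15 to 108. Ribosomal protein genes have many processed pseudogene copies, how reads with several places were counted is not given in the labels or the table, and the level of a single member is uncertain to that extent.

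The tissue comparison asks whether ExE and E cells differ in these mRNAs. With all libraries 2 of the 79 members passed an adjusted p of 0.05 in edgeR's quasi-likelihood test with Benjamini-Hochberg adjustment, both higher in ExE, where 46.1% of the 13595 genes tested were called, 22.1% higher and 23.9% lower. The median log2 fold change, ExE over E as the mean of the 3 genotypes, was 0.13 (quartiles 0.07 and 0.20), against −0.02 over all genes, and 75 of 79 values were positive. Without the 3 libraries 37 of 79 were called, all higher, 16 of the small and 21 of the large subunit, against 52.6% of all genes, 25.0% higher. The median was then 0.21, against −0.04 over all genes. The 3 libraries were singled out by the members' own levels, so leaving them out narrows the members' spread. The calls and adjusted p without the 3, here and below, describe the remaining libraries and are no independent test. With the replicate number as a block, which pairs E and ExE pools of 1 genotype, 42 were called, all higher, with a median of 0.20, against 51.2% of all genes, and 36 genes were called both with the block and without the 3 libraries (97.3% of the 37 and 85.7% of the 42). E_ZZ2, E_Zwt4 and ExE_Zwt1 have no partner of their number and do not enter the blocked contrast, which rests on 10 pairs. The 2 fits share most of their libraries, so the overlap of their calls is no independent support.

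A correction of each library for GC content and length lowered most of these values. With it and all libraries 1 member was higher in ExE (Rps4l) and 4 were lower (Rpl15, Rpl3, Rplp0 and Rps2), the median was −0.02 and 51.4% of all genes were called; with block and correction together 10 were higher and 11 lower, the median was −0.0076 and 51.6% were called. When the libraries were scaled on the members themselves, a choice made after the data were seen, only Rps4l was called, against 38.0% of all genes, and the median was by construction close to 0 (0.0025). A joint change of the members and a tilt of the libraries by length and GC content cannot be told apart by these fits.

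**Figure D3:**
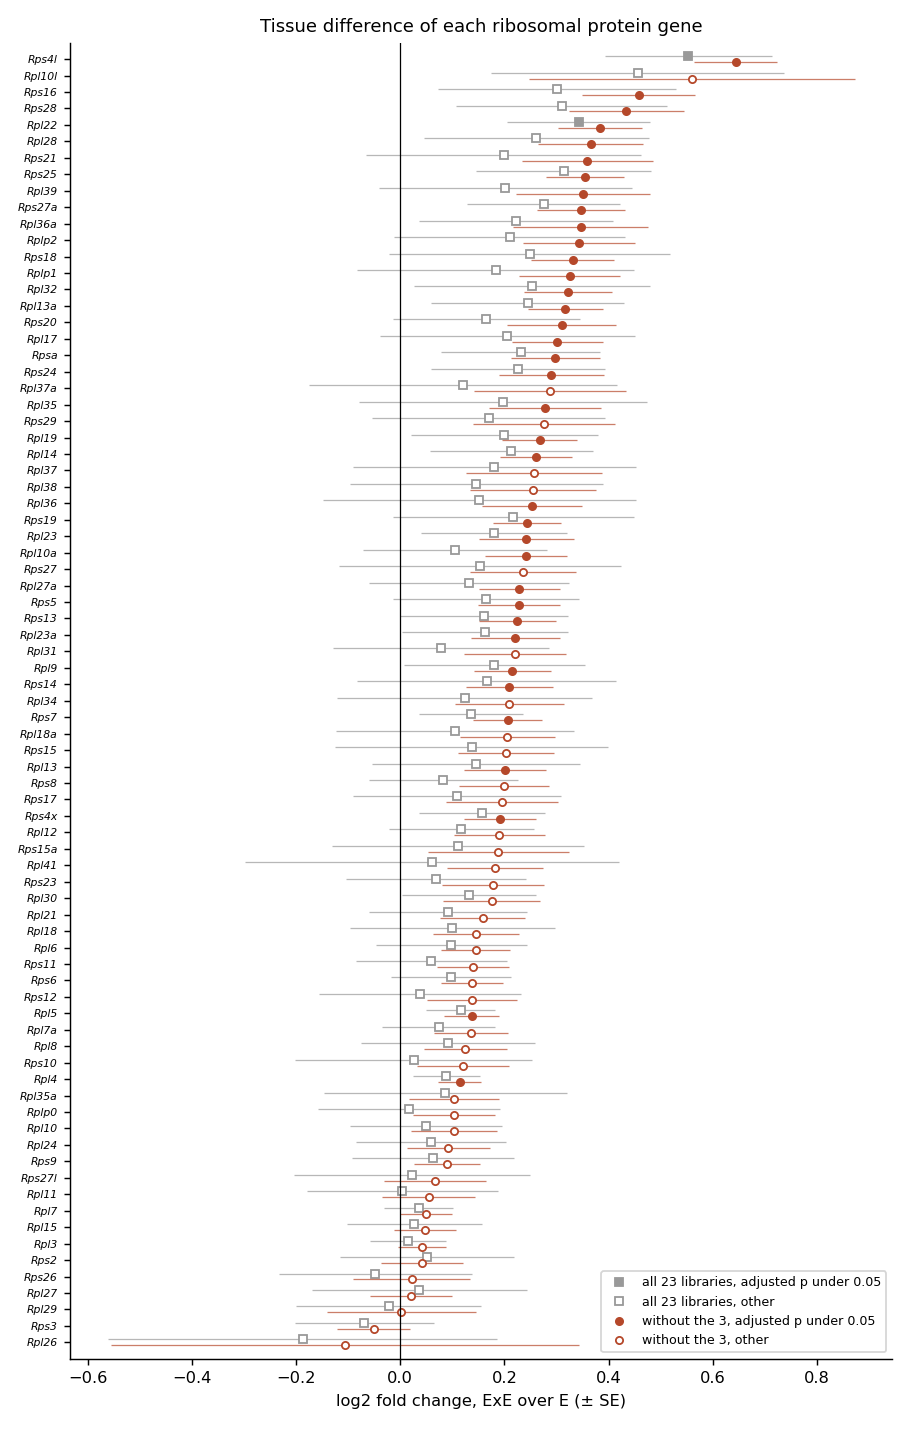
Log2 fold change, ExE over E, of the 79 ribosomal protein genes as the mean of the 3 genotypes, with SE; red circles leave out ExE_ZZ3, E_ZZ3 and E_Zwt4, grey squares hold all 23 libraries, and filled marks have an adjusted p under 0.05. Filled red circles number 37 and filled grey squares 2, with Rps4l topmost at 0.64 and 0.55.

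Rps4l gave the largest tissue difference in the mean of the 3 genotypes. In ExE it had 673, 1185 and 568 CPM in ZZ libraries, 692, 574, 644 and 692 in Zwt libraries, and 485, 596, 753 and 545 in wt libraries. In E it had 416, 440, 770 and 311 CPM in ZZ libraries, 411, 385, 861 and 402 in Zwt libraries, and 416, 397, 407 and 368 in wt libraries. The tissues overlapped through E_ZZ3 and E_Zwt4, and without the 3 libraries all 10 ExE values (485 to 753 CPM) lay above all 10 E values (311 to 440 CPM). It was the 1 member of 79 whose tissues did not overlap without the 3, while 7.94% of all genes had every ExE library above every E library. With all libraries no member was free of overlap, against 4.19% of all genes. The log2 fold change was 0.55 ± 0.16 (SE; adjusted p = 0.00686 in edgeR's quasi-likelihood test), 0.64 ± 0.08 without the 3 (adjusted p = 1.02e-06) and 0.65 ± 0.06 with the block (adjusted p = 2.13e-06). It passed in all 35 settings tried, between 0.36 and 0.69, the GC and length correction giving 0.36 ± 0.06.

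The Rps4l row is annotated in GENCODE M21 as a transcribed processed pseudogene of 1 exon at chr6:148354656-148355598 (GRCm38, plus strand). It lies within an intron of Tmtc1, which is on the other strand and held 0 to 53 counts per library against 1835 to 6493 for Rps4l. The X-linked Rps4x, which encodes the small-subunit protein, has 7 exons, and 710 of 903 aligned bases (78.6%) of the 2 transcripts were identical. Reads from Rps4x and Rps4l can be split between the rows only as far as those differences allow. The ratio of Rps4l to Rps4x counts was 0.942 to 1.42 in ExE libraries (median 1.15) and 0.650 to 1.04 in E libraries (median 0.846), so the tissues overlapped slightly in this ratio, which is taken within a library. Rps4x itself had a log2 fold change of 0.16 ± 0.12 (adjusted p = 0.309), and of 0.19 ± 0.07 without the 3 (adjusted p = 0.0240).

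**Figure D4:**
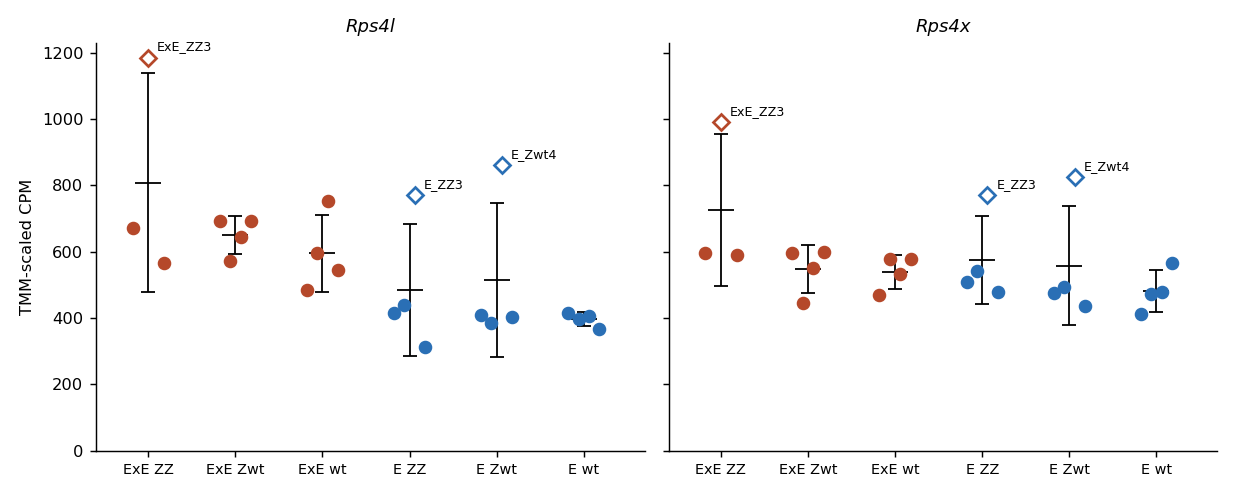
TMM-scaled CPM of Rps4l (left) and Rps4x (right) by group; points are libraries, open diamonds ExE_ZZ3, E_ZZ3 and E_Zwt4, and bars the mean ± SD of all libraries in the group. The filled ExE points of Rps4l (485 to 753 CPM) lie above its filled E points (311 to 440 CPM), while for Rps4x 6 of 10 filled ExE points lie above the highest filled E point.

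Rpl22 was the other member called with all libraries. It encodes a large-subunit protein whose loss mice survive and which holds down its paralogue Rpl22l1. Its level ran from 183 to 484 CPM in ExE (median 258) and from 168 to 351 CPM in E (median 202). Without the 3 libraries 9 of 10 ExE libraries lay above the highest E library, ExE_wt1 being the exception. The log2 fold change was 0.34 ± 0.14 (adjusted p = 0.0456 in edgeR's quasi-likelihood test), and 0.38 ± 0.08 without the 3 (adjusted p = 0.000439). The call was lost with the GC and length correction (0.29 ± 0.17, adjusted p = 0.173). It was kept with the block (0.39 ± 0.06, adjusted p = 0.000232 in the same test) and with block and correction (0.35 ± 0.07, adjusted p = 0.000721). Rpl22 passed in 14 of 35 settings and was positive in all 35. The ratio of Rpl22 to Rpl22l1 counts was 1.45 to 2.79 in ExE (median 2.30) and 1.49 to 2.03 in E (median 1.87), and Rpl22l1 had a log2 fold change of 0.10 ± 0.14 (adjusted p = 0.606), and of 0.18 ± 0.10 without the 3 (adjusted p = 0.151).

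Because fewer than 5 members passed in either direction, the most extreme are named whatever their p. After Rps4l and Rpl22, the largest positive values were 0.46 ± 0.28 for Rpl10l (adjusted p = 0.196), 0.31 ± 0.17 for Rps25 (adjusted p = 0.135) and 0.31 ± 0.20 for Rps28 (adjusted p = 0.226), 2 small-subunit proteins besides the low-count paralogue. Rps25, used by some viral internal ribosome entry sites, had 179 to 689 CPM in ExE (median 242) and 166 to 421 in E (median 202). Without the 3, 7 of 10 ExE libraries lay above the highest E library and the fold change was 0.36 ± 0.07 (adjusted p = 0.000451). Rps28, found near the mRNA exit, gave 0.43 ± 0.11 without the 3 (adjusted p = 0.00238), and Rps16, which sits in the small subunit's head, 0.46 ± 0.11 (adjusted p = 0.00148). Rps25 overlaps Ccdc84 and Trappc4 on the other strand (51 to 196 and 478 to 910 counts per library, against 1217 to 3021 for Rps25), and Rps28 overlaps Kank3 (29 to 228 counts, against 610 to 1605). Neither the labels nor the table give the strand setting of the counting, so overlapping reads cannot be told apart.

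The most negative were −0.19 ± 0.37 for Rpl26, −0.07 ± 0.13 for Rps3, −0.05 ± 0.19 for Rps26 and −0.02 ± 0.18 for Rpl29, followed by 0.0037 ± 0.18 for Rpl11, with adjusted p between 0.708 and 0.993. Rps3, which lines the mRNA entry channel, had 962 to 2305 CPM in ExE (median 1189) and 1021 to 2266 CPM in E (median 1285). Its groups overlapped fully, and the signs of Rps26 and Rpl29 turned without the 3 libraries (0.022 and 0.0020).

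The acidic stalk recruits the elongation factors to the large subunit. Its 3 genes gave 0.02 ± 0.17 (Rplp0), 0.18 ± 0.27 (Rplp1) and 0.21 ± 0.22 (Rplp2) with all libraries, none of them called. Without the 3, Rplp1 (0.33 ± 0.10, adjusted p = 0.00811) and Rplp2 (0.34 ± 0.11, adjusted p = 0.0112) were called and Rplp0 was not (0.10 ± 0.08, adjusted p = 0.280). Rplp1 then had 334 to 628 CPM in ExE (median 511) and 346 to 444 CPM in E (median 402), with 8 of 10 ExE libraries above the highest E library.

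Rpsa, the small-subunit protein also known as the laminin receptor, had 1119 to 1770 CPM in ExE (median 1502) and 940 to 1286 CPM in E (median 1201) without the 3, with 8 of 10 ExE libraries above every E library. Its fold change was 0.30 ± 0.08 (adjusted p = 0.00588), and 0.23 ± 0.15 with all libraries (adjusted p = 0.230). Rps6, the target of S6 kinase, gave 0.10 ± 0.12 (adjusted p = 0.523) and without the 3 0.14 ± 0.06 (adjusted p = 0.0572). Rpl5 and Rpl11, which with 5S rRNA can bind Mdm2 and so stabilise p53, gave 0.12 ± 0.07 (adjusted p = 0.159) and 0.0037 ± 0.18, and without the 3 0.14 ± 0.05 (adjusted p = 0.0328) and 0.05 ± 0.09 (adjusted p = 0.635). The p53-inducible paralogue Rps27l gave 0.02 ± 0.23 (adjusted p = 0.951), and Rpl41 0.06 ± 0.36 (adjusted p = 0.910), and without the 3 these were 0.07 ± 0.10 (adjusted p = 0.599) and 0.18 ± 0.09 (adjusted p = 0.104).

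Of the 18 members whose human counterparts are Diamond-Blackfan anaemia genes none was called with all libraries, where 46.1% of all genes were, and 6 without the 3, where 52.6% were. Of the 4 X-linked members (Rpl10, Rpl36a, Rpl39 and Rps4x) none was called with all libraries and 3 without the 3, beside the same shares of all genes, Rpl10 being the exception at 0.10 ± 0.08 (adjusted p = 0.314). Rps27a, which encodes a ribosomal protein fused to ubiquitin, gave 0.28 ± 0.15 (adjusted p = 0.131) and was called without the 3 (0.35 ± 0.08, adjusted p = 0.00172). Fau, a ribosomal protein fusion gene outside the symbol rule, gave 0.13 ± 0.21 (adjusted p = 0.653) and 0.19 ± 0.09 without the 3 (adjusted p = 0.0884).

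Within each genotype no member was called with all libraries, where 16.8% (ZZ), 27.0% (Zwt) and 17.3% (wt) of all genes were. The median log2 fold changes, ExE over E, were 0.43 in ZZ with 79 of 79 positive, −0.16 in Zwt with 10 of 79 positive, and 0.15 in wt with 75 of 79 positive. ExE_ZZ3 and E_ZZ3 enter the ZZ value and E_Zwt4 the Zwt value. Without them the medians were 0.25 in ZZ, 0.23 in Zwt and 0.14 in wt, with 77, 77 and 72 positive, and the negative direction in Zwt was gone. The calls were then 2 in ZZ (Rps25 and Rps4l, against 20.0% of all genes), 13 in Zwt (35.6%) and 3 in wt (Rpl13a, Rps18 and Rps4l, 26.3%).

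Rps4l was among the calls in each genotype without the 3, at 0.66 ± 0.16 in ZZ (adjusted p = 0.00486), 0.70 ± 0.13 in Zwt (adjusted p = 0.000380) and 0.57 ± 0.12 in wt (adjusted p = 0.00151). With the replicate block the counts were 23 in ZZ (against 20.9% of all genes), 7 in Zwt (30.6%) and 6 in wt (25.8%), and without E_ZZ3 alone, which leaves ExE_ZZ3 in the ExE group, 19 were called in ZZ (20.2%).

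No member was called between genotypes. In ExE, ZZ against wt had 0 calls among all 12355 genes in edgeR's quasi-likelihood test, and 68 members passed an unadjusted p of 0.05 upward, against 5.35% of all genes. Without the 3 libraries that number was 11, against 3.70% of all genes. The members share these libraries and rose together in ExE_ZZ3, so neither number counts separate results. Rpl34, Rpl39 and Rps27l had the smallest p, at log2 fold changes of 1.37 ± 0.34, 1.25 ± 0.32 and 1.29 ± 0.34 (adjusted p = 0.513 each), and without the 3 libraries 0.57 ± 0.18, 0.62 ± 0.22 and 0.52 ± 0.19 (adjusted p = 0.570 to 0.571). Rpl34 had 194, 621 and 173 CPM in ZZ libraries and 103, 116, 156 and 121 CPM in wt libraries, and Rps27l 180, 647 and 214 CPM in ZZ libraries and 103, 155, 151 and 142 CPM in wt libraries. ExE_ZZ3 lay highest in both genes, which were named for their small p.

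In E, ZZ against wt again had no member called, where 0.0161% of 12405 genes were. 1 member passed an unadjusted p of 0.05 upward with all libraries, against 2.37% of all genes, and 13 without the 3, against 3.37%. Here too the members share their libraries, so the 13 are not separate results. Rpl35a, Rpl41 and Rpl29 had the smallest p, at 0.83 ± 0.37, 1.25 ± 0.60 and 0.57 ± 0.28 (adjusted p = 0.961 each). Without E_ZZ3 and E_Zwt4 they gave 0.32 ± 0.11, 0.30 ± 0.10 and 0.25 ± 0.19 (adjusted p = 0.559, 0.534 and 0.849 in edgeR's quasi-likelihood test). Rpl35a had 185, 190, 514 and 193 CPM in ZZ libraries and 136, 155, 148 and 171 CPM in wt libraries. E_ZZ3 lay far above the rest, and the gene was named for its small p.

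In Zwt against wt, no member was called in either tissue, with 0 calls over all genes in edgeR's test and 0 members at an unadjusted p of 0.05, where 4.13% of all genes passed in ExE and 2.40% in E. The median was 0.12 in ExE (77 of 79 positive) and 0.42 in E (79 of 79 positive), and without E_Zwt4 the median in E was 0.03 with 53 positive. The difference of the ZZ effect between ExE and E was not called for any gene in edgeR's test, with 0 members at an unadjusted p of 0.05 against 3.06% of all genes. Its median over members was 0.26, and 0.09 without the 3. These comparisons share wt libraries.

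The spread among pools was taken as the SD of log2 CPM about the group means. Its median over the 79 members was 0.463 with all libraries and 0.193 without the 3, against 0.294 and 0.180 for the 2404 other genes of like level. Relative to each library's member median it was 0.170 and 0.119. That median is taken over the same members, so a lower value is in part built in. The 3 libraries were singled out by the members' levels, so the lower spread without them is in part built in too. The other genes were not set against their own median, and joint variation was not tested. Without the 3, Rpl4 (0.0755), Rpl3 (0.0867), Rpl7 (0.0902), Rpl5 (0.0958) and Rpl15 (0.123) varied least, all large-subunit proteins, 4 of which also had the smallest mean excess in the 3 libraries. The most variable were Rpl10l (0.651) and Rpl26 (0.502), which had few counts, and Rpl29 (0.372), Rpl37a (0.359) and Rps29 (0.324), which had more.

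**Figure D5:**
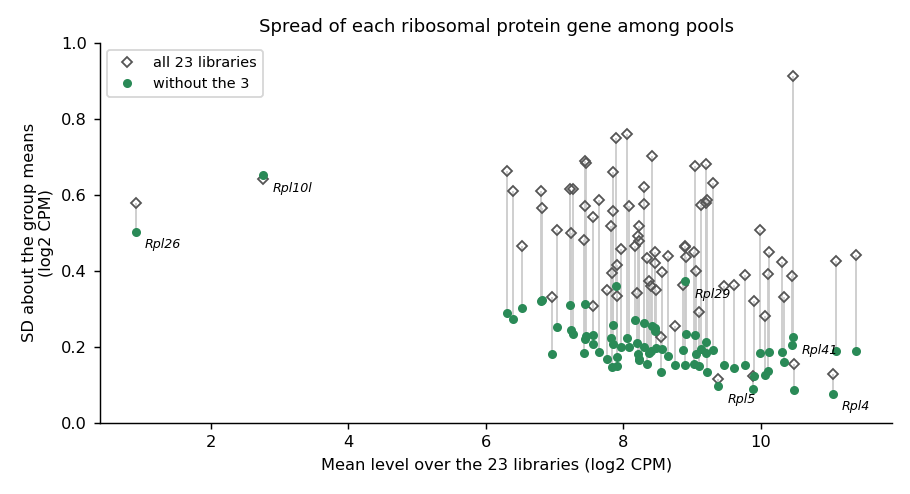
SD of log2 CPM about the group means against the mean level of each of the 79 ribosomal protein genes; grey diamonds hold all 23 libraries, green circles leave out ExE_ZZ3, E_ZZ3 and E_Zwt4, and lines join the 2 values of a gene. The median SD is 0.463 with all libraries and 0.193 without the 3, and Rpl4 is the lowest green circle at 0.0755.

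Genes that make or serve the ribosome gave mixed tissue differences. Calls with all libraries come first and those without the 3 after them, and values of single genes are with all libraries. Of 76 mitochondrial ribosomal protein genes, which belong to a separate ribosome, 14 were higher in ExE and 1 lower, and 32 higher and 5 lower without the 3; Mrpl33 rose by 0.95 ± 0.25 (adjusted p = 0.00341) and Mrps33 by 0.56 ± 0.14 (adjusted p = 0.00219). Of 20 initiation factors 2 were higher and 1 lower, and 6 and 4 without the 3. Eif2s2, a subunit of the factor that carries the initiator tRNA, was higher by 0.74 ± 0.10 (adjusted p = 2.45e-06), and Eif1ax, which helps scan for the start codon, fell by 0.91 ± 0.09 on the log2 scale (adjusted p = 7.19e-08). Of 19 elongation factors and other TOP mRNAs, 2 were higher and 3 lower, and 2 and 5 without the 3. Eef1a1, which brings aminoacyl-tRNA to the ribosome, fell by 0.21 ± 0.06 (adjusted p = 0.00291), and Hnrnpa1 by 0.43 ± 0.10 (adjusted p = 0.00179).

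Of 48 ribosome biogenesis genes 2 were higher and 1 lower, and 5 and 7 without the 3, Tcof1 giving 0.36 ± 0.07 (adjusted p = 0.000127) and Rrp1, an rRNA processing protein, −0.41 ± 0.07 (adjusted p = 9.72e-05). Of 14 RNA polymerase I genes 2 were higher and 2 lower, and 3 and 5 without the 3, led by Polr1d at 0.65 ± 0.15 (adjusted p = 0.00121). Of 17 mTORC1 and Myc regulators 3 were higher and 5 lower, and 3 and 6 without the 3: Myc gave 0.46 ± 0.09 (adjusted p = 0.000366), Mycn −0.95 ± 0.10 (adjusted p = 1.78e-07) and Larp1 −0.19 ± 0.07 (adjusted p = 0.0195). Of 11 p53 targets 1 was higher and 5 lower, and 2 and 7 without the 3, with Pmaip1, which encodes the cell-death protein Noxa, at −3.16 ± 0.38 (adjusted p = 6.92e-07). Over all genes 22.1% were higher and 23.9% lower with all libraries, and 52.6% were called without the 3, 25.0% higher, beside which these counts are to be read.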

How the data were processed

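The authors deposited 1 table of raw read counts per gene (23725 rows, 23 libraries), and these deposited counts are the unit of every test. Per the labels' protocols, polyA RNA with an integrity number over 8 was amplified from pools, sequenced as 75-base single-end reads, trimmed with cutadapt 1.7.1 and FastX 0.0.13, and filtered with ShortRead 1.16.3; TopHat2 2.0.12 and the builds mm10 and GRCm38 come from the submitters' processing notes. The counting program, its annotation, its handling of reads with several places and its strand setting appear in none of the sources read here.

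Counts were filtered with filterByExpr, scaled with TMM and tested with the quasi-likelihood test of edgeR 4.0.16 (R 4.3.3), two-sided, with group means as the model and Benjamini-Hochberg adjustment over all genes tested at 0.05. Tissue contrasts use all 23 libraries and genotype contrasts the libraries of 1 tissue. Log2 CPM used a prior count of 2. Alternatives were DESeq2 1.42.0, voom in limma 3.58.1, other scalings, no filter, no minimum on total counts, a replicate block, a correction for GC content and length, and each library left out in turn. The test was checked on simulated counts.

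The members and lists were chosen with earlier results of these data known. Named were the 10 most extreme called members in each direction of the tissue comparison, or the 5 most extreme where fewer than 5 were called; the 5 highest and lowest levels; the 5 largest and smallest spreads; the 3 smallest p of each direction in ZZ against wt; and the stalk genes, Rpsa, Rps6, Rpl5, Rpl11, Rpl41 and members ending in l or x. In the listed pathways the 5 genes of smallest p could be named. Genes that illustrate the excess in the 3 libraries, and Rps16 and Rpl35a among the sequences and values, were chosen after their values were seen.

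Libraries of 1 tissue are pools of separate embryos, and p-values measure the spread between pools. In 33 pairs of libraries of 1 group a chi-square test of the counts gave 12.3 to 118 per degree of freedom, so no library was a copy of another. The labels say that E and ExE pools of 1 number shared litters in 3 of 4 replicates, which pairs them: over 10 such pairs the deviations from the group means correlated at −0.125 to 0.744 (median 0.174), and over 34 pairs of other numbers at a median of −0.0456. Between genotypes 16 pairs of 1 number ran from −0.644 to 0.419, with a median of −0.0521. Litters shared between genotypes were not tested, and the block pairs tissues only. The tissue fits without the block treat E and ExE pools as unpaired.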

Additional observations from a re-analysis of the deposited data

Results flagged for a closer look

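Of 40 sets of 4 libraries of 1 group examined for a library far from the rest, 12 held one, 9 of them E_ZZ3 or E_Zwt4, which the levels of these genes had already set apart. Chance gives about 1 in 20 independent sets, but these sets share libraries, so the 2 numbers cannot be compared. For the share of counts in the 79 genes these were E_ZZ3 at 7.63%, E_Zwt4 at 7.64% and, on the low side, E_wt1 at 3.10%. For single genes E_ZZ3 was far above its group for Rpl22 (338 CPM), Rps25 (421 CPM) and Rpl41 (5853 CPM). E_Zwt4 was far above its group for Rps4l (861 CPM), Rps4x (826 CPM), Rps25 (381 CPM) and Rpl41 (5291 CPM). E_wt1 was far below its group for Rps25 (173 CPM), and the same library had the highest visceral endoderm marker sum, 638 CPM. In ExE_Zwt2 the ratio of Rps4l to Rps4x counts, 1.29, stood apart from the other ExE Zwt libraries. The ExE ZZ group has 3 libraries and was not examined in this way.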

How the results depend on the processing

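The count of members called between ExE and E was 2 with all libraries, 1 with RLE size factors, 1 with DESeq2, 1 with scaling on the members, 5 with the GC and length correction, 37 without the 3 libraries, 42 with the replicate block and 21 with block and correction. It ranged from 1 to 12 when each library was left out, with 12 without E_Zwt4 and 6 without E_ZZ3, and the median fold change from −0.04 to 0.30. Within ZZ, where 0 were called, it was 2 without the 3, 23 with the block, 1 with the correction, 3 with both and 0 to 19 when each library was left out. Within Zwt, also 0, it was 13, 7, 2, 8 and 0 to 1 in that order, and 1 with scaling on the members. Within wt, also 0, it was 3 without the 3, 6 with the block, 4 with block and correction, 1 from wt libraries alone and 0 when each library was left out. The counts of 0 between genotypes were 0 under every alternative run. Of all genes 46.1% were called between ExE and E with all libraries, 52.6% without the 3 and 51.2% with the block. The correction gave 51.4%, block with correction 51.6% and scaling on the members 38.0%. In ZZ, Zwt and wt the shares were 16.8%, 27.0% and 17.3% with all libraries, and 20.0%, 35.6% and 26.3% without the 3. With the block they were 20.9%, 30.6% and 25.8%. Shares for the other settings are not given here, and their counts cannot be read without them. The median level was 396 and 624 CPM per kilobase with the other lengths, and the median spread 0.193 without the 3. The causes were not tested. Rpl26 and Rpl10l had 5 to 28 and 15 to 108 counts per library, and their differences were not detectable at this depth.

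Signs turned for some of the named members, whose log2 fold change with all libraries was between −0.07 and 0.20. Rpl11 was at −0.025, −0.021, −0.025, −0.21, −0.21 and −0.14 and Rplp0 at −0.012, −0.0072, −0.012, −0.20, −0.20 and −0.12 with RLE, library totals, DESeq2, the correction, block with correction, and scaling on the members. Rps27l was at −0.0051, −0.0039, −0.0052 and −0.12 with RLE, totals, DESeq2 and member scaling. With the correction, block with correction and member scaling Rpl41 was at −0.13, −0.074 and −0.039, Rps6 at −0.029, −0.014 and −0.052, and Rpl10 at −0.077, −0.033 and −0.096. Rplp1 was at −0.028 and −0.011 with the correction without and with the block, Rpl5 at −0.042 with member scaling, and Rps26 and Rpl29 at 0.022 and 0.0020 without the 3. When each library was left out, Rps3 ran from −0.19 to 0.034, Rps26 from −0.20 to 0.091, Rpl29 from −0.15 to 0.099, Rpl11 from −0.17 to 0.14, Rplp0 from −0.13 to 0.17, Rplp1 from −0.10 to 0.42, Rpl41 from −0.46 to 0.42, Rps27l from −0.24 to 0.22, Rpl10 from −0.058 to 0.17 and Rpl39 from −0.0069 to 0.41. The lowest value came without ExE_ZZ3 each time and the highest without E_ZZ3 or E_Zwt4.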
